A study of Mus musculus with 9 samples.

Results

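Ccl5 and Heatr9 are neighbouring genes in the CC chemokine region of mouse chromosome 11, and they are 2 of the 21959 genes in the deposited table. They were chosen for their large differences between the groups in these same libraries, so the values that show those differences are given as a description and without a test. Ccl5 (ENSMUSG00000035042) encodes the chemokine CCL5, also called RANTES, and Heatr9 (ENSMUSG00000018925) encodes a protein with HEAT repeats, which are helical repeats found in many scaffold proteins. Messenger RNA was measured by sequencing total RNA of DC2.4, a mouse dendritic cell line that all the groups share, in 9 libraries that fall into 3 groups of 3, labelled OMVSSDC, ZJDC and PBSDC. According to its design text, the study treated these cells with vesicles of an engineered extracellular kind. The abbreviations OMVSS and ZJ are not explained in the labels, and neither the group that received those vesicles nor the dose and duration is stated. PBS is the usual short form of phosphate-buffered saline, and the other groups are set against PBSDC on that reading.

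CCL5 is a secreted chemokine that draws T cells, monocytes, eosinophils and natural killer cells through several CC chemokine receptors. It is known from T cells and platelets, and dendritic cells and macrophages make it after Toll-like receptor or interferon stimulation, when NF-kB and interferon regulatory factors act at its promoter. CCL3 and CCL4, encoded further along the same chromosome, use overlapping receptors.

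Library totals ranged from 12784931 to 18388959 counts, so that a count of 0 allows up to 3 counts, or 0.163 to 0.235 CPM, the scale of counts over the library total. The libraries of OMVSSDC did not sit together. Over all genes, OMVSSDC replicates 1 and 2 differed by a chi-square of 1.78 per degree of freedom, whereas each differed from OMVSSDC replicate 3 by 47.5 to 49.8. OMVSSDC replicate 3 was closer to ZJDC, from whose libraries it differed by 6.14 to 8.42. Libraries of the same group differed by 2.27 to 7.14 within ZJDC and by 2.45 to 3.29 within PBSDC. The labels do not say whether libraries came from separate cultures, so every p-value below measures the spread between these samples, which may be technical. Of 9 dendritic cell markers, 6 (Flt3, H2-Ab1, Ciita, Ccr7, Xcr1 and Clec9a) were at most 1 CPM in every library. Cd74 and Sirpa carried the summed dendritic level, which was 2129 to 2313 CPM in OMVSSDC, 2265 to 2332 CPM in ZJDC and 1912 to 1954 CPM in PBSDC. The 9 myeloid markers summed to 3647 to 4291 CPM in OMVSSDC, 3999 to 4119 CPM in ZJDC and 4617 to 4735 CPM in PBSDC. Within that sum the markers moved in opposite directions. Lyz2 averaged 302, 273 and 846 CPM in OMVSSDC, ZJDC and PBSDC, and Csf1r, Itgam and Spi1 also had their highest mean in PBSDC. Cd68 averaged 1359, 1520 and 860 CPM, and Ptprc, Itgax, Fcer1g and Tyrobp also had their lowest mean in PBSDC.

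Ccl5 was abundant in OMVSSDC and ZJDC cells and low in PBSDC cells. The deposited counts of Ccl5 were 4877, 6179 and 2157 in OMVSSDC replicates 1, 2 and 3. ZJDC replicates 1, 2 and 3 had 1915, 1365 and 2466, and the PBSDC replicates had 88, 65 and 63. No PBSDC library came near any library of the other groups, and the OMVSSDC libraries divided into a pair with high counts and 1 with a count like those of ZJDC.

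Scaled for library size and composition, Ccl5 stood at 351.8, 345.3 and 146 CPM in OMVSSDC, at 108, 106.9 and 132.4 CPM in ZJDC, and at 5.19, 4.46 and 4.60 CPM in PBSDC. The group means were 281 ± 117 CPM in OMVSSDC, 115.8 ± 14.45 CPM in ZJDC and 4.75 ± 0.389 CPM in PBSDC (SD, n = 3 each). OMVSSDC replicate 3 lay only just above ZJDC replicate 3. Among all 11568 genes tested, 63.6% passed the test between OMVSSDC and PBSDC, 54.7% between ZJDC and PBSDC and 1.95% between OMVSSDC and ZJDC. At an unadjusted p under 0.05 (edgeR), 3675 genes differed between OMVSSDC and ZJDC.

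The fitted log2 fold change of Ccl5 was 5.88 (SE 0.354) for OMVSSDC over PBSDC, which is 58.9-fold, and it ranked 8 of 11568 from the highest. For ZJDC over PBSDC it was 4.60 (SE 0.344), which is 24.3-fold, and it ranked 12. These comparisons share the PBSDC libraries. For OMVSSDC over ZJDC the log2 fold change of Ccl5 was 1.28 (SE 0.269), which is 2.43-fold, and it ranked 34. The median log2 fold change over all tested genes was 0.05, 0.01 and 0.01 in these comparisons.

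That last difference followed the division among the OMVSSDC libraries. Replicates 1 and 2 averaged 348.5 CPM of Ccl5, which is 2.39 times the 146 CPM of replicate 3. Without OMVSSDC replicate 3, the log2 fold change of Ccl5 for OMVSSDC over ZJDC was 1.58, and with replicate 3 as the only OMVSSDC library it was 0.32. Over PBSDC the same fits gave 6.19 and 4.93. Ccl5 was 1 of 328 tested genes that were over 2-fold higher in replicates 1 and 2 than in replicate 3, while 174 genes were over 2-fold lower. What set replicate 3 apart was not tested.

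FPKM, the authors' unit, divides counts by listed gene length and library total, so that genes can be set side by side as far as those lengths hold. The listed length of Ccl5 is 960 bases, whereas its coding transcript has 532, over which its FPKM would be higher. This limit also applies to the ranks, ratios and shares drawn from FPKM below. Ccl5 reached 390, 383 and 153 FPKM in OMVSSDC. It reached 111, 111 and 140 FPKM in ZJDC, and 5.16, 4.44 and 4.59 FPKM in PBSDC. By FPKM, Ccl5 ranked 63, 66 and 216 among the 21959 genes of the OMVSSDC libraries. It ranked 319, 319 and 256 in ZJDC, and 6532, 6971 and 6857 in PBSDC. Ccl5 thus ranked between 63 and 319 in every OMVSSDC and ZJDC library.

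T and natural killer cells, which are known for high Ccl5, left almost no markers. Of 12 T and natural killer markers, 10 were at 0 in all 9 libraries. The list summed to 0 to 0.289 CPM in OMVSSDC, 0.0537 to 0.282 CPM in ZJDC and 0 to 0.343 CPM in PBSDC. The 5 platelet markers, another known source of CCL5, summed to 47.2 to 81.9 CPM in OMVSSDC, 49.9 to 67.0 CPM in ZJDC and 104 to 107 CPM in PBSDC. Of these, Ppbp and Gp9 were at most 1 CPM in every library. Pf4 stood at 73.0, 73.8 and 42.1 CPM in OMVSSDC, 46.4, 44.7 and 60.3 CPM in ZJDC, and 101.7, 104.4 and 103.3 CPM in PBSDC. Itga2b lay the other way, with 7.50, 5.98 and 3.38 CPM in OMVSSDC, 3.67, 2.97 and 5.05 CPM in ZJDC, and 1.24, 1.10 and 1.53 CPM in PBSDC. The 8 epithelial and stromal markers summed to 2.89 to 14.95 CPM in OMVSSDC, 6.82 to 11.4 CPM in ZJDC and 19.0 to 21.8 CPM in PBSDC. Among them, Col1a1 had 3, 1 and 52 counts in OMVSSDC, 21, 53 and 22 in ZJDC, and 54, 26 and 27 in PBSDC, so that OMVSSDC replicate 3 again stood apart from replicates 1 and 2. Pecam1 had 2.38, 3.46 and 5.89 CPM in OMVSSDC, 4.34, 3.60 and 4.62 CPM in ZJDC, and 15.4, 14.95 and 15.5 CPM in PBSDC. The 4 B cell markers summed to 2.30 to 3.90 CPM in OMVSSDC, 2.19 to 4.004 CPM in ZJDC and 2.89 to 4.60 CPM in PBSDC. The libraries are of a cell line, and whether RNA of any other cell type entered the Ccl5 and Heatr9 values was not tested. In bulk RNA, a change in how many cells make Ccl5 and a change in RNA per cell cannot be told apart.

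Heatr9 was moderately expressed in OMVSSDC and ZJDC cells and at the limit of detection in PBSDC cells. Its counts were 377, 520 and 417 in OMVSSDC, 239, 202 and 324 in ZJDC, and 2, 0 and 6 in PBSDC. Scaled, Heatr9 stood at 27.2, 29.06 and 28.22 CPM in OMVSSDC. It stood at 13.48, 15.81 and 17.4 CPM in ZJDC, and at 0.118, 0 and 0.438 CPM in PBSDC, where only replicate 3 exceeded the limit that a count of 0 allows. In contrast to Ccl5, the 3 OMVSSDC libraries were close together.

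The mean level of Heatr9 was 28.16 ± 0.931 CPM in OMVSSDC, 15.56 ± 1.97 CPM in ZJDC and 0.185 ± 0.227 CPM in PBSDC (SD, n = 3 each). Its log2 fold change was 7.25 (SE 0.340) for OMVSSDC over PBSDC and 6.39 (SE 0.356) for ZJDC over PBSDC, and it ranked 3 of 11568 from the highest in both. Both values rest on the few PBSDC counts. Without PBSDC replicate 3, which holds 6 of those counts, the log2 fold changes were 8.62 for OMVSSDC and 7.77 for ZJDC. For OMVSSDC over ZJDC, Heatr9 differed by 0.86 (SE 0.183), which is 1.81-fold, and ranked 195. By FPKM, Heatr9 stood at 15.4, 16.5 and 15.1 in OMVSSDC, 7.10, 8.43 and 9.40 in ZJDC, and 0.0600, 0 and 0.224 in PBSDC.

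**Figure D1:**
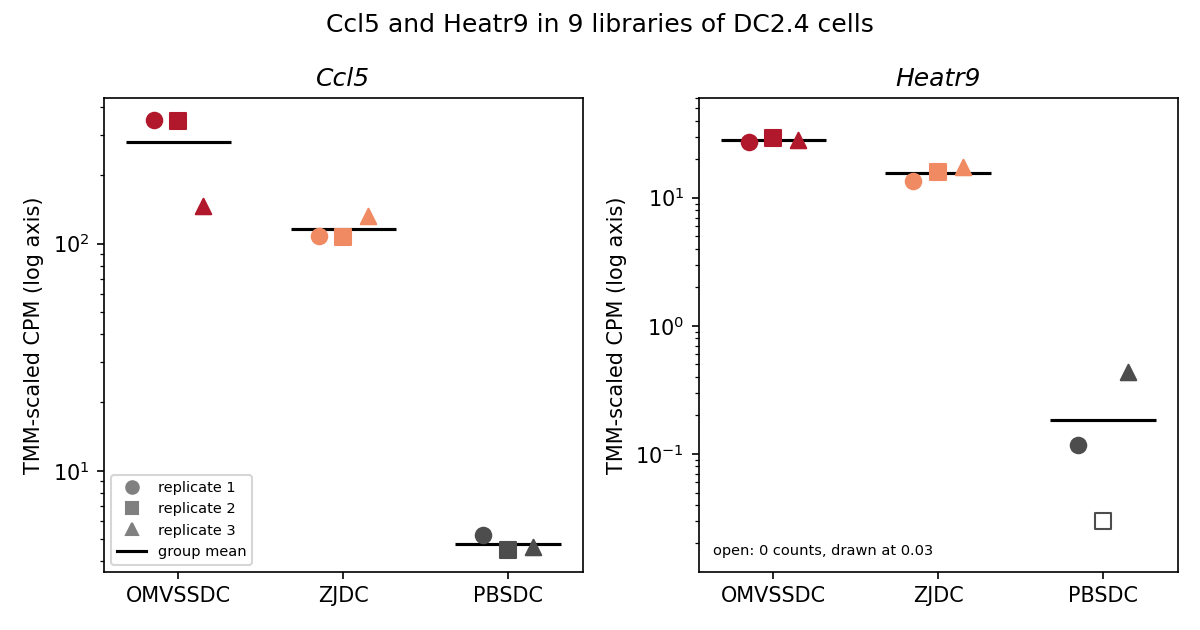
TMM-scaled CPM of Ccl5 and Heatr9 on log axes in the 9 libraries, by group, with each point a library, its shape the replicate number and each line a group mean. OMVSSDC replicate 3 lies at 146 CPM for Ccl5, below replicates 1 and 2 at 351.8 and 345.3 CPM, but at 28.22 CPM for Heatr9, between them.

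The plot of CPM by library shows the feature that separates the pair. The mean of OMVSSDC replicates 1 and 2 was 2.39 times replicate 3 for Ccl5 and 0.997 times replicate 3 for Heatr9. In log2 CPM the difference between them was 1.26 for Ccl5, which ranked 132 from the highest of 11568 genes, and -0.01 for Heatr9, which ranked 5804. Of all tested genes, 4.34% differed by more than 2-fold in either direction between replicates 1 and 2 and replicate 3.

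The share of the pair's counts that fell on Heatr9 therefore varied between libraries. In OMVSSDC, Heatr9 took 7.18% (6.49 to 7.91%), 7.76% (7.13 to 8.43%) and 16.2% (14.8 to 17.7%) of the summed counts of both genes in replicates 1, 2 and 3, with 95% exact (Clopper-Pearson) intervals that cover counting error only. In ZJDC it took 11.1% (9.80 to 12.5%), 12.9% (11.3 to 14.7%) and 11.6% (10.4 to 12.9%). In PBSDC it took 2.22% (0.270 to 7.80%), 0% (0 to 5.52%) and 8.70% (3.26 to 18.0%). The interval of OMVSSDC replicate 3 lay above those of all 3 ZJDC libraries, and the intervals of OMVSSDC replicates 1 and 2 lay below them. The PBSDC shares rest on 65 to 90 counts and their intervals overlapped, and whether they differ from one another was not tested. The group means of the share were 10.4 ± 5.05% in OMVSSDC, 11.9 ± 0.924% in ZJDC and 3.64 ± 4.52% in PBSDC (SD, n = 3 each).

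Per listed length, Ccl5 exceeded Heatr9 in every library that held both. The ratio of Ccl5 to Heatr9 in FPKM was 25.3, 23.2 and 10.1 in OMVSSDC and 15.6, 13.2 and 14.9 in ZJDC. In PBSDC it was 85.9 in replicate 1 and 20.5 in replicate 3, from 2 and 6 Heatr9 counts.

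In the table, Ccl5 lies on the minus strand of chromosome 11 from 83416604 to 83421344, and Heatr9 lies on the same strand from 83402562 to 83413001. The sources used here name no genome build for these coordinates, and they differ from those of GRCm38. Heatr9 lies beyond the 3′ end of Ccl5, 3602 bases away, with no listed gene between them and none that overlaps either. On its other side Heatr9 is followed after 4992 bases by Taf15, and Ccl5 is followed after 42400 bases by Ccl9. In the GENCODE M21 annotation, Ccl5 has a coding transcript of 3 exons and 532 bases and a retained-intron transcript of 668 bases, whose joined exons make up the 960 bases that the table lists as its length. Heatr9 has 1 transcript of 15 exons and 1875 bases. Counts per gene do not separate the 2 Ccl5 transcripts, and reads that run on past the end of Ccl5 were not analysed here.

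RefSeq promoter windows (GRCm38.p6, 250 bases before to 50 after the RefSeq start) were matched to 18 of the 25 genes of the interval, Heatr9 among them, and Ccl5 was not searched. The upstream stretch of Heatr9, chr11:83522176-83522349 on the minus strand, is shown because it is the start region of a gene with at least 202 counts in each OMVSSDC and ZJDC library and at most 6 in PBSDC. It ends just before the GENCODE M21 transcript start, which lies upstream of the RefSeq start. Positions counted from the RefSeq start are therefore not distances from the end of the printed stretch. Capitals mark the match to TGANTCA, with any base at N, which was searched as the AP-1 motif. The usual site of Fos and Jun proteins has C or G at N, and the Heatr9 match has G.

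Heatr9: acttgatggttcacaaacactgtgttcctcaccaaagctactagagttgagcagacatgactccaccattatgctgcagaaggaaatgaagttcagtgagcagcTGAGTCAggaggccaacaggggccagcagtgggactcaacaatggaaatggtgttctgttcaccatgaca

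Both strands of each window were searched for 7 motifs. The Heatr9 window held the AP-1 motif, 146 bases before the RefSeq start, and none of the other 6, which were the interferon-stimulated response element (ISRE, with GAAA at both ends and any 2 bases between), the NF-kB motif, the cAMP response element TGACGTCA, the TATA box letters TATAAA, the letters CCAAT of the CCAAT box and the GC box GGGCGG. Among 32817 RefSeq promoter windows of the same length, 7.81% held TGANTCA, 3.43% the ISRE, 8.46% the NF-kB motif, 1.79% TGACGTCA, 13.6% TATAAA, 37.4% CCAAT and 35.6% GGGCGG. A match describes the letters of a window and is not evidence of binding.

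The letters TGANTCA occurred in 5 of the 18 windows of the interval. The other 4 belong to Slfn4, Slfn14, Gas2l2 and Ccl9. Windows were also found for 5 genes whose pattern over the libraries was close to that of the pair. The same letters occurred in 2 of them, Slamf7 and Sprr2d, and not in Slc39a2, Sh2d6 or Krt23. At N, Slfn4 and Slamf7 have C and Sprr2d has G. Slfn14 has T there, and Gas2l2 and Ccl9 have A, which is outside the usual AP-1 site. The 7.81% over all windows also allows any base at N. The matches are shown so that the bases around them can be compared with those in Heatr9.

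Slfn4, chr11:83175142-83175168, plus strand: ctcagagtgaTGACTCAatttaactta

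Slfn14, chr11:83286844-83286870, minus strand: tccaaggaccTGATTCAttcctggagg

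Gas2l2, chr11:83429521-83429547, minus strand: ggggacccatTGAATCAaggagaactg

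Ccl9, chr11:83578673-83578699, minus strand: ttactctctcTGAATCAatttgaactt

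Slamf7, chr1:171649025-171649051, minus strand: aaacgtgagaTGACTCAttgtaacaag

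Sprr2d, chr3:92338937-92338963, plus strand: gagtgctcacTGAGTCAcaggtctcaa

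Of the genes with this match, Heatr9, Slamf7, Sprr2d and Slfn4 were higher in OMVSSDC and ZJDC than in PBSDC, whereas Ccl9 was lower in both and Gas2l2 had counts in 2 libraries only. Slfn14, too low to test, had 12, 7 and 16 counts in OMVSSDC, 9, 7 and 3 in ZJDC, and 0, 4 and 0 in PBSDC. Heatr9 was chosen for its difference in these libraries, and Slamf7 and Sprr2d for a pattern like that of the pair. The direction of these genes therefore follows from how they were chosen. Of all tested genes, 33.4% were called higher in OMVSSDC and 27.6% in ZJDC relative to PBSDC. Whether the match goes with a direction was not tested.

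The 23 other genes whose starts lie within 500 kb of that of Ccl5 were chosen by position and could be tested. Of these, 16 had enough counts, and the other 7, among them Slfn14, Rasl10b, Gas2l2, 1700020L24Rik, Wfdc18 and Wfdc21, had at most 16 counts in any library. With edgeR's quasi-likelihood test and Benjamini-Hochberg adjustment over all 11568 genes, 8 rose and 5 fell in OMVSSDC relative to PBSDC, which is 81.2% of the 16 beside 63.6% of all genes (33.4% higher and 30.2% lower). In ZJDC relative to PBSDC, 9 rose and 4 fell, again 81.2%, beside 54.7% of all genes (27.6% higher and 27.1% lower). The median log2 fold change of the 16 was 0.33 in OMVSSDC and 0.31 in ZJDC (0.05 and 0.01 over all tested genes). Without OMVSSDC replicate 3 the OMVSSDC counts were 8 and 6.

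**Figure D2:**
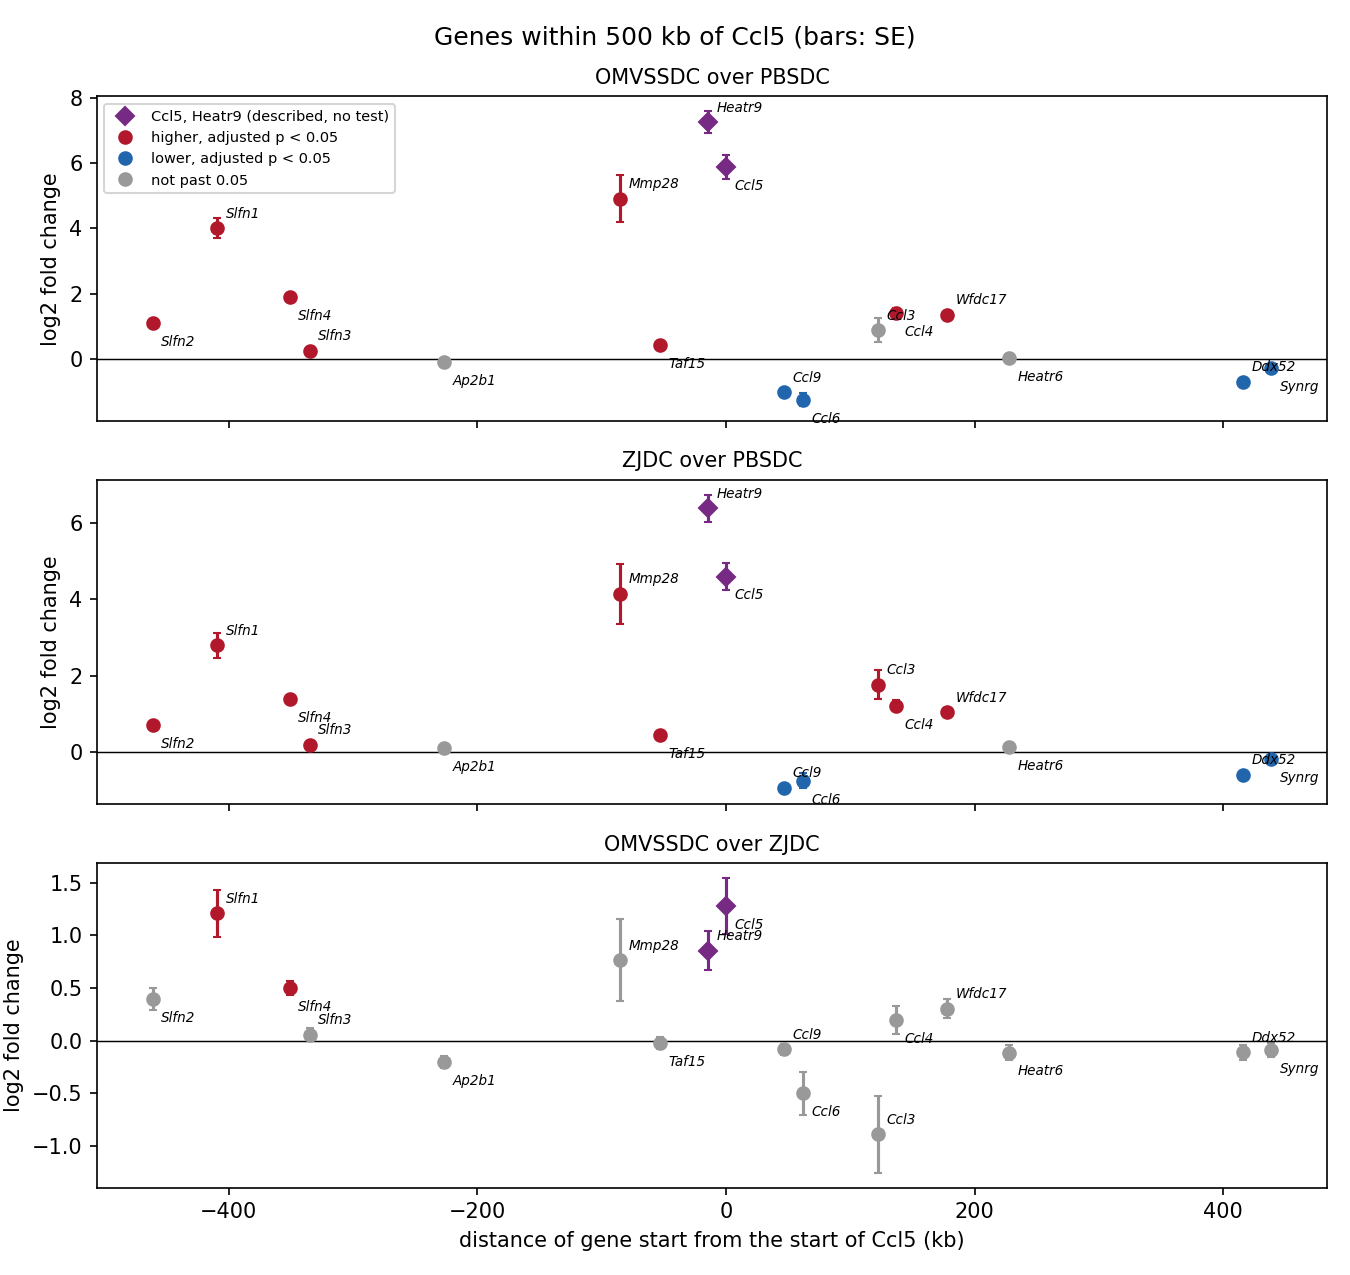
Log2 fold change (vertical axis, bars are SE) of Ccl5, Heatr9 and 15 of the 16 tested genes within 500 kb against the distance of each gene's start from that of Ccl5 in kb, for OMVSSDC over PBSDC, ZJDC over PBSDC and OMVSSDC over ZJDC from top to bottom. Heatr9 and Ccl5 (diamonds, without a test) stand at 7.25 and 5.88 in the top panel while the genes on either side, Taf15 and Ccl9, stand at 0.41 and -1.01.

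In the plot by position, Taf15 stood above 0 and Ccl9 below it, while Mmp28, on the Taf15 side, stood higher. Taf15, which encodes an RNA-binding protein of the transcription machinery and is the nearest gene beyond Heatr9, rose by 0.41 in OMVSSDC (adjusted p = 0.000138, edgeR) and by 0.44 in ZJDC (adjusted p = 0.000134) on the log2 scale, with means of 349 ± 4.83, 354 ± 14.6 and 262 ± 8.59 CPM in OMVSSDC, ZJDC and PBSDC (SD, n = 3 each). Ccl9, the chemokine gene nearest to Ccl5 and a ligand of CCR1, averaged 260 ± 2.30 CPM in OMVSSDC, 276 ± 2.46 CPM in ZJDC and 525 ± 10.7 CPM in PBSDC. Its log2 fold change was -1.01 in OMVSSDC (adjusted p = 1.6e-07, edgeR) and -0.93 in ZJDC (adjusted p = 4.43e-07). Ccl6, beside Ccl9 and another CCR1 ligand in mouse, fell as well, to 3.06 ± 0.656 CPM in OMVSSDC and 4.39 ± 0.691 CPM in ZJDC, against 7.37 ± 0.945 CPM in PBSDC (adjusted p = 0.00031 and 0.00694, edgeR).

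Ccl4 and Ccl3, which encode attractants of T cells and monocytes, lie further on. Ccl4 had 304.9, 312 and 215.1 CPM in OMVSSDC, 228.1, 227.2 and 270.9 CPM in ZJDC, and 103.4, 101.2 and 107.6 CPM in PBSDC. All libraries of both groups exceeded all PBSDC libraries, and Ccl4 rose by 1.41 in OMVSSDC (adjusted p = 9.53e-06, edgeR) and by 1.22 in ZJDC (adjusted p = 3.79e-05) on the log2 scale. Within OMVSSDC, replicate 3 was again the lowest, as it was for Ccl5.

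Ccl3 divided the OMVSSDC libraries the other way. It had 132.5, 171.2 and 459.1 CPM in OMVSSDC, 507.9, 471.6 and 437.4 CPM in ZJDC, and 142, 127.4 and 147.4 CPM in PBSDC. In OMVSSDC replicates 1 and 2, where Ccl5 was highest, Ccl3 lay within or just above the PBSDC range, and in replicate 3 it lay within the ZJDC range. Ccl3 rose by 1.77 in ZJDC (adjusted p = 0.00263, edgeR) on the log2 scale, and its 0.87 in OMVSSDC did not pass (adjusted p = 0.0602). Without OMVSSDC replicate 3 that value was 0.13, and with replicate 3 as the only OMVSSDC library it was 1.72. Under scaling by library size alone, Ccl3 passed in OMVSSDC with an adjusted p of 0.0328 (edgeR).

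The count ratio of Ccl5 to Ccl3 was accordingly 2.66, 2.02 and 0.318 in OMVSSDC, 0.213, 0.227 and 0.303 in ZJDC, and 0.0366, 0.0350 and 0.0312 in PBSDC. Ccl5 outnumbered Ccl3 in OMVSSDC replicates 1 and 2 and in no other library. Of the summed FPKM of the 11 listed CC chemokine genes on chromosome 11, Ccl5 made up 23.7, 22.5 and 9.88% in OMVSSDC, where it ranked 2, 2 and 4. It made up 6.97, 7.21 and 8.70% in ZJDC, with ranks 5, 5 and 4, and 0.635, 0.554 and 0.533% in PBSDC, with rank 7 throughout.

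**Figure D3:**
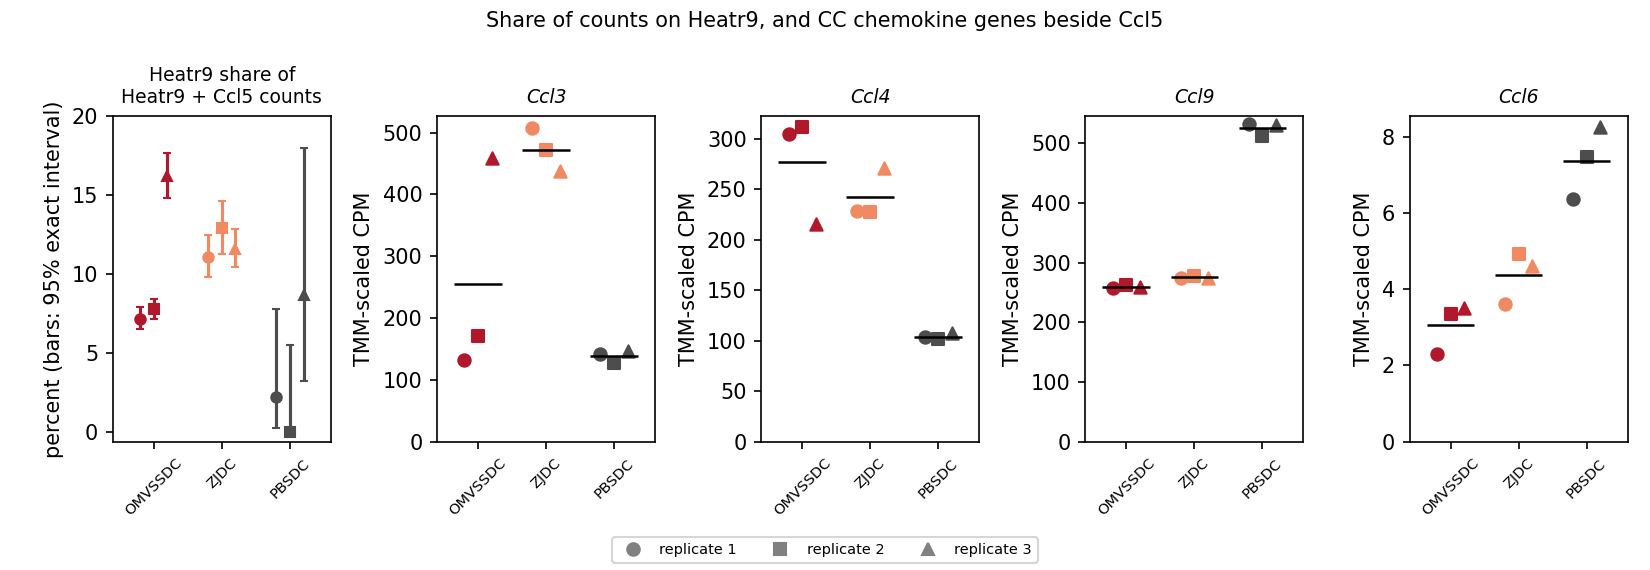
The left panel gives the percent of the summed Heatr9 and Ccl5 counts that fell on Heatr9, with 95% exact intervals, and the other panels give TMM-scaled CPM of Ccl3, Ccl4, Ccl9 and Ccl6, by group, with a point for each library and lines for group means. OMVSSDC replicate 3 (triangle) has a Heatr9 share of 16.2%, against 7.18 and 7.76% in replicates 1 and 2, and is the highest of the OMVSSDC libraries for Ccl3 and the lowest for Ccl4.

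The plot of the Heatr9 share and the neighbouring chemokines sets these divisions side by side. Ccl9 had no such division, and its 3 OMVSSDC libraries lay within 257.9 to 262.4 CPM.

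On the far side, beyond Taf15, lie Schlafen genes, of a mouse family that interferon induces in myeloid cells. Slfn1 averaged 11.2 ± 1.11 CPM in OMVSSDC, 4.81 ± 0.909 CPM in ZJDC and 0.715 ± 0.402 CPM in PBSDC, with log2 fold changes over PBSDC of 4.01 in OMVSSDC and 2.80 in ZJDC. Slfn4 averaged 1274 ± 89.1 CPM in OMVSSDC, 902 ± 11.4 CPM in ZJDC and 344 ± 17.4 CPM in PBSDC, with log2 fold changes of 1.89 and 1.39. Slfn2 rose by 1.10 and 0.71. Slfn3 had values of 0.25 and 0.19, and its call in ZJDC (adjusted p = 0.0281, edgeR) was lost under 7 of the 18 other settings. Slfn8, Slfn9 and Slfn5 lie just outside the 500 kb and were named after their values were seen. Slfn9 had -1.17 in OMVSSDC (adjusted p = 7.05e-05, edgeR) and -0.71 in ZJDC (adjusted p = 0.00224). Slfn8 had 0.16 and 0.14 and did not pass. Slfn5 had 1.61 in OMVSSDC (adjusted p = 0.000171, edgeR) and 0.75 in ZJDC (adjusted p = 0.0237). These family members resemble one another, and the sources used here do not say how reads shared between them were counted.

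Wfdc17, past Ccl4, rose by 1.35 in OMVSSDC and 1.05 in ZJDC. Mmp28, a metalloproteinase gene on the Taf15 side, passed as higher in both comparisons from 12, 19 and 11 counts in OMVSSDC, 12, 4 and 10 in ZJDC, and 0, 1 and 0 in PBSDC. Its fitted log2 fold changes of 4.91 in OMVSSDC (adjusted p = 0.000185, edgeR) and 4.15 in ZJDC (adjusted p = 0.00145) rest on that 1 PBSDC count, and the ratio of summed counts to PBSDC, scaled for library size, was 40.8 in OMVSSDC and 23.9 in ZJDC, with 95% exact intervals for counting error of 6.94 to 1650 and 3.93 to 981. Mmp28 overlaps 1700020L24Rik on the opposite strand, and whether counting used the strand is not given. Ddx52, an RNA helicase gene near the end of the interval, fell by 0.70 in OMVSSDC and by 0.59 in ZJDC. Synrg had -0.27 and -0.18, and its call in OMVSSDC was lost under scaling by library size alone (adjusted p = 0.0642, edgeR). Its call in ZJDC (adjusted p = 0.0411) held under 8 of the 18 other settings. Ap2b1 and Heatr6 did not pass in either comparison.

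Between OMVSSDC and ZJDC, where Ccl5 and Heatr9 differed by 1.28 and 0.86, 2 of the 16 flanking genes passed and both were higher in OMVSSDC. Slfn1 differed by 1.21 (adjusted p = 0.0358, edgeR) and Slfn4 by 0.50 (adjusted p = 0.0154). At an unadjusted p under 0.05 there were 4 higher and 3 lower, and DESeq2 called 4 higher and 1 lower. Both edgeR calls were lost when OMVSSDC replicate 1 or 2, or any ZJDC library, was left out, and that of Slfn1 also without PBSDC replicate 2 or 3. They were also lost with the replicate number as a block (adjusted p = 0.139 for Slfn1 and 0.118 for Slfn4, edgeR) and with only the groups compared in the fit (adjusted p = 0.123 and 0.129). Without OMVSSDC replicate 3, 5 flanking genes were higher and 5 lower in OMVSSDC, Ccl3 among the lower with -1.63 (adjusted p = 3.64e-05, edgeR). That fit called 6539 of all genes, against 226 with all libraries.

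The genes most like the pair in level pattern were found by the root mean square (RMS) difference of centred log2 CPM over the 9 libraries. This is a description, since groups that differ in nearly every gene give many high correlations, and 1140 of 11567 genes had a Pearson r above 0.95 with Ccl5. Nearest to Ccl5 were Slc39a2, a zinc transporter gene (RMS 0.510, r = 0.991), and Sh2d6, which encodes an SH2-domain protein (RMS 0.519, r = 0.984). Syt7, a calcium sensor of vesicle fusion (RMS 0.590), the keratin gene Krt23 (RMS 0.594) and Sprr2d, a small proline-rich protein gene (RMS 0.671), came next.

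Slc39a2 divided the OMVSSDC libraries as Ccl5 did, with 133, 193 and 77 counts in OMVSSDC, 67, 65 and 68 in ZJDC, and 2, 4 and 2 in PBSDC. Sh2d6 reached a level similar to that of Ccl5, with 339 ± 10.7 CPM in OMVSSDC, 234 ± 3.43 CPM in ZJDC and 11.3 ± 1.42 CPM in PBSDC, but its OMVSSDC libraries did not divide.

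Nearest to Heatr9 were Slamf7, which encodes a receptor of immune cells (RMS 0.633), and Syt7 (RMS 0.703). Slamf7 averaged 175 ± 27.2 CPM in OMVSSDC, 162 ± 5.15 CPM in ZJDC and 3.55 ± 0.916 CPM in PBSDC. Ccl5 itself ranked 3 (RMS 0.837, r = 0.974), before Sprr2d (RMS 0.923) and Sh2d6 (RMS 0.972). Counted from Ccl5, Heatr9 ranked 12 of 11567. By Pearson r, Heatr9 ranked 570 from Ccl5 and Ccl5 ranked 389 from Heatr9, so the nearness of the pair in pattern depends on the measure. With Pearson r in place of the RMS difference, 0 of the 5 nearest genes were shared for either member, and with a prior count of 0.5, 3 of 5 were shared for each.

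**Figure D4:**
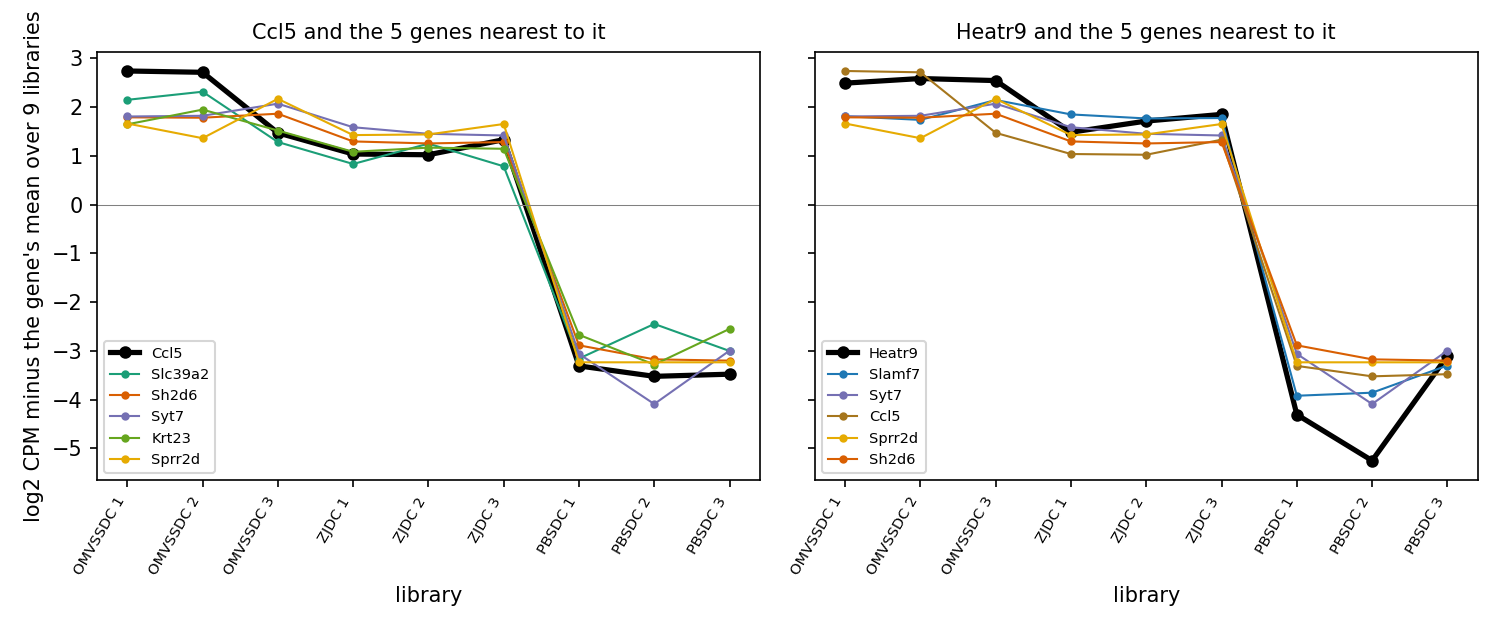
Log2 CPM (prior count 2) of Ccl5 (left, black) and Heatr9 (right, black) and of the 5 genes nearest to each, centred on each gene's mean over the 9 libraries, which run along the horizontal axis. All lines drop at the PBSDC libraries, and from OMVSSDC replicates 1 and 2 to replicate 3 the Ccl5 line steps down while the Heatr9 line stays level.

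The plot of centred levels shows that the pair parts most at OMVSSDC replicate 3 and at PBSDC replicates 1 and 2, where Heatr9 had 2 and 0 counts.

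The pathway around CCL5 was described with 60 other genes listed by role, of which 52 could be tested. In OMVSSDC relative to PBSDC, 17 rose and 11 fell, which is 53.8% of the 52 beside 63.6% of all genes, with a median log2 fold change of 0.16. In ZJDC relative to PBSDC, 24 rose and 9 fell, which is 63.5% beside 54.7% of all genes, with a median of 0.21. Of these calls, 23 of 28 in OMVSSDC and 23 of 33 in ZJDC held under every other setting tried. Without OMVSSDC replicate 3 the OMVSSDC counts were 23 and 16.

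Of 8 further ligands of the CCL5 receptors, 5 were tested, and besides Ccl3, Ccl4, Ccl6 and Ccl9 (above) this leaves Ccl7, with -0.08 in OMVSSDC and 0.16 in ZJDC, neither past the threshold. Ccl7 was at -0.34 in OMVSSDC without replicate 3 (adjusted p = 0.000319, edgeR), and with that library alone it was at 0.33. The fit without replicate 3 lacks the library that stood apart, and it called 8813 of all genes over PBSDC, against 7358 with all libraries. Of the other CC genes of the region, Ccl2, the main monocyte attractant, rose by 0.65 in OMVSSDC (adjusted p = 0.00218, edgeR) and by 0.37 in ZJDC (adjusted p = 0.0426). The ZJDC call of Ccl2 was lost when any ZJDC or PBSDC library was left out and with the replicate number as a block. Ccl12, a mouse CCR2 ligand, had -0.88 in OMVSSDC (adjusted p = 0.00348, edgeR) and -1.47 in ZJDC (adjusted p = 0.000207). Over PBSDC, the log2 fold changes of the other tested CC genes lay between -1.47 and 1.77.

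Of the receptor genes, Ccr1 lay near 1 CPM in all groups, with log2 fold changes of 0.26 in OMVSSDC (adjusted p = 0.440, edgeR) and 0.73 in ZJDC (adjusted p = 0.0389, lost under 11 of the 18 other settings). Ccr3 was too low to test. Ackr2, a scavenging receptor that takes up CCL5, was at 0.356 ± 0.15 CPM in OMVSSDC, 0.343 ± 0.0447 CPM in ZJDC and 1.11 ± 0.465 CPM in PBSDC, with log2 fold changes of -1.59 (adjusted p = 0.00798, edgeR) and -1.66 (adjusted p = 0.00758). Of the enzymes that trim CCL5, Ctsg was at 0 in all 9 libraries and Dpp4 was too low to test.

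CCL5 binds glycosaminoglycans and proteoglycans of the cell surface. Of 9 such genes, 4 rose and 1 fell in OMVSSDC, and 3 rose and 1 fell in ZJDC, which is 55.6% and 44.4% beside 63.6% and 54.7% of all genes. The syndecan gene Sdc2 rose by 1.02 in OMVSSDC and 1.13 in ZJDC, Sdc3 by 0.46 and 0.30, and Ext1, which builds heparan sulfate chains, by 0.58 and 0.63. The call of Ext2 in OMVSSDC, at 0.15 (adjusted p = 0.0427, edgeR), held under 3 of the 18 other settings. Cd44, a hyaluronan receptor that can carry the same chains, had -0.40 in OMVSSDC (adjusted p = 0.000728, edgeR) and -0.21 in ZJDC (adjusted p = 0.0275). Its call in ZJDC was lost when any ZJDC or PBSDC library was left out. That call was also lost with the replicate number as a block and under scaling by library size alone.

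Of 14 transcription factors known to act at the Ccl5 promoter or on interferon response genes, 5 rose and 0 fell in OMVSSDC, and 8 rose and 0 fell in ZJDC, which is 35.7% and 57.1% beside 63.6% and 54.7% of all genes. Under scaling by library size alone, 11 were higher and 0 lower in OMVSSDC. At an unadjusted p under 0.05, 7 were higher and 1 lower in OMVSSDC, and 8 higher and 0 lower in ZJDC. DESeq2 called 4 higher and 1 lower in OMVSSDC, and 8 higher and 0 lower in ZJDC. Irf7, the interferon regulatory factor that amplifies type I interferon, averaged 640 ± 14.6 CPM in OMVSSDC, 444 ± 10.5 CPM in ZJDC and 156 ± 12 CPM in PBSDC, and rose by 2.04 (adjusted p = 1.65e-08, edgeR) and 1.51 (adjusted p = 1.44e-07). Irf1 rose by 1.11 and 0.72, and Klf13, a factor known from late Ccl5 transcription in T cells, by 0.81 and 0.60.

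The NF-kB gene Rel rose by 0.63 in ZJDC (adjusted p = 0.00176, edgeR), and its 0.32 in OMVSSDC (adjusted p = 0.0457) lost its call under 12 of the 18 other settings. The rises of Stat2, Rela and Cebpb in ZJDC were also lost under some settings. Jun, an AP-1 gene, had -0.22 in OMVSSDC and 0.07 in ZJDC and did not pass in either. Jun was at -0.38 in OMVSSDC without replicate 3 (adjusted p = 5.31e-07, edgeR), in the fit that called 8813 of all genes. Irf7 was the only pathway gene past the threshold between OMVSSDC and ZJDC, with 0.53 (adjusted p = 0.0127, edgeR), in the same direction as Ccl5 and Heatr9. That call was lost when OMVSSDC replicate 1 or 2, or any ZJDC library, was left out, with the replicate number as a block (adjusted p = 0.116, edgeR) and with only the groups compared (adjusted p = 0.0878). Over the 52 genes there were 9 higher and 8 lower at an unadjusted p under 0.05, DESeq2 called 3 higher and 2 lower, and without OMVSSDC replicate 3 edgeR called 15 higher and 20 lower.

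**Figure D5:**
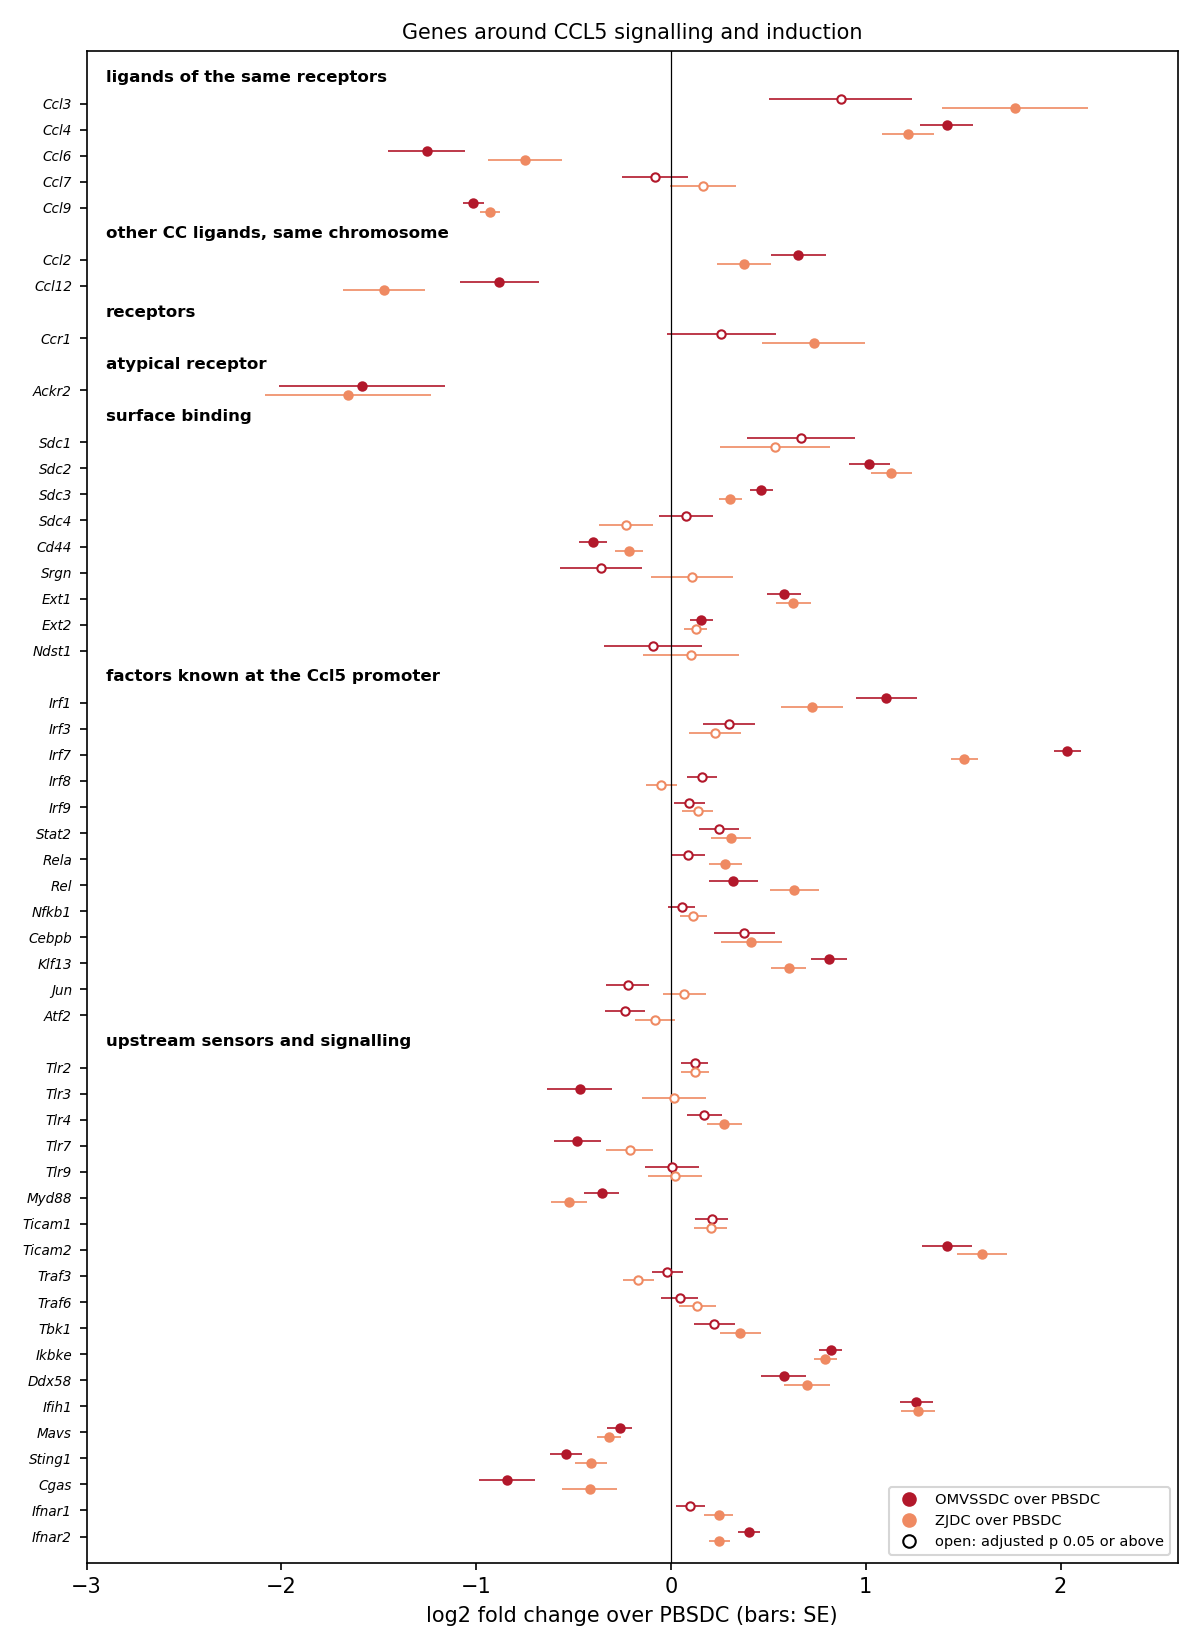
Log2 fold change over PBSDC (horizontal axis, bars are SE) of 50 of the 52 tested genes of the CCL5 pathway, grouped by role, for OMVSSDC (dark) and ZJDC (light), with open points for an adjusted p of 0.05 or above. Irf7, at 2.04 in OMVSSDC and 1.51 in ZJDC, is the highest of the promoter factors in both.

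The plot of the pathway genes does not hold Ccl5, which lies beyond its axis. Among 19 genes of the sensors and signalling steps upstream of Ccl5, 5 rose and 6 fell in OMVSSDC, and 8 rose and 4 fell in ZJDC, which is 57.9% and 63.2% beside 63.6% and 54.7% of all genes. Under scaling by library size alone, 10 were higher and 3 lower in OMVSSDC. Ticam2, which couples TLR4 to the TRIF branch, rose by 1.42 in OMVSSDC and 1.60 in ZJDC, the RNA sensor genes Ifih1 by 1.26 and 1.27 and Ddx58 by 0.58 and 0.70, and the kinase gene Ikbke by 0.82 and 0.79. Sting1, which relays cytosolic DNA sensing, had -0.54 in OMVSSDC and -0.41 in ZJDC, and Tlr7 had -0.48 in OMVSSDC (adjusted p = 0.00528, edgeR). The DNA sensor gene Cgas had -0.84 in OMVSSDC (adjusted p = 0.000534, edgeR) and -0.42 in ZJDC (adjusted p = 0.0303). Its ZJDC call was lost when ZJDC replicate 2 or 3 or any PBSDC library was left out, and with the replicate number as a block. The calls of the adaptor genes Myd88 and Mavs, at -0.36 and -0.26 in OMVSSDC, were lost there under scaling by library size alone (adjusted p = 0.0664 and 0.0695).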

How the data were processed

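Total RNA of 9 DC2.4 libraries was sequenced. Per the submitters' processing notes, fastp 0.22.0, HISAT2 2.1.0 and HTSeq 0.9.1 were used. Neither genome build nor annotation is given in the sources used here. The authors deposited read counts per gene, without further normalization, and FPKM, which was checked against counts over listed gene length and library total and matched within 0.1% for every value above 0. Of 21959 genes, 4916 had 0 counts throughout.

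The analysis ran in R 4.3.3. In edgeR 4.0.16, filterByExpr (minimum count 10, total 15) kept 11568 genes, libraries were scaled with TMM, and a robust quasi-likelihood model with group as the only factor was fitted to all 9 libraries (6 residual degrees of freedom). F-tests were two-sided and adjusted by Benjamini-Hochberg over all genes, with 0.05 as the threshold. Alternatives used other scalings and filters, DESeq2 1.42.0, limma-voom (limma 3.58.1), a replicate block, only the 2 groups compared, each library left out, and OMVSSDC replicate 3 as the only OMVSSDC library (7 libraries, its spread assumed like that of the other groups). Scripts were tested on simulated data.

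The members and the gene lists were chosen with earlier results of these data known, so the members' folds carry no p-value. Named were the members, the genes within 500 kb of Ccl5, the pathway lists and, for each member, the 5 genes with the smallest root mean square difference of centred log2 CPM (prior count 2). Group means are of TMM-scaled CPM. Promoter sequences are from RefSeq (GRCm38.p6). Some genes that enter the counts are not reported singly here.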

Additional observations from a re-analysis of the deposited data

How the results depend on the processing

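Under all 18 alternative settings Ccl5 and Heatr9 stayed higher in OMVSSDC than in ZJDC and higher in both than in PBSDC. The log2 fold change ranged from 4.93 to 6.19 for Ccl5 and 6.70 to 8.62 for Heatr9 in OMVSSDC over PBSDC, from 4.49 to 4.67 and 5.84 to 7.77 in ZJDC over PBSDC, and from 0.32 to 1.58 and 0.76 to 0.94 in OMVSSDC over ZJDC. Leaving out single libraries gave 5.68 to 6.19, 4.49 to 4.67 and 1.08 to 1.58 for Ccl5, and for Heatr9 the ranges above. With OMVSSDC replicate 3 as the only OMVSSDC library, Ccl5 was at 4.93 over PBSDC and 0.32 over ZJDC. The calls over PBSDC for all genes, flanking genes and pathway genes, both directions together, stayed within 1.5 times. Windows of 250 and 1000 kb were the exception, with 7 and 23 flanking calls in OMVSSDC and 7 and 22 in ZJDC. Calls in a single direction, and those of the shorter lists by role, could move further. Leaving out single libraries gave 6545 to 8813 and 5459 to 8242 calls over all genes, 13 to 15 and 11 to 16 flanking, and 25 to 39 and 24 to 42 pathway calls. The counts between OMVSSDC and ZJDC did not hold. The 226 calls over all genes, 2 flanking and 1 pathway became 1643, 5 and 5 with DESeq2, 0, 0 and 0 with only the 2 groups compared, and 355, 2 and 3 with OMVSSDC replicate 3 alone, and 0 flanking in the 250 kb window. Leaving out single libraries gave 0 to 6539, 0 to 10 and 0 to 35, with the highest without OMVSSDC replicate 3 and 0 over all genes without any one ZJDC library; without OMVSSDC replicate 1 or 2 there were 6 and 2, and without PBSDC replicate 1, 2 or 3 there were 30, 24 and 30. The 5 edgeR fits with 0 calls had 2122 to 3149 genes at an unadjusted p under 0.05. The replicate numbers did not pair the samples (correlations -0.388 to 0.0887, and 1 of 9 libraries correlated best with its own number). With the replicate block the calls over all genes were 6867, 5777 and 0, the flanking calls 13, 11 and 0, and the pathway calls 25, 28 and 0. Scaling by library size alone moved the median of all genes by 0.13 in OMVSSDC over PBSDC, where flanking calls were 9 higher and 3 lower (8 and 5 with TMM) and pathway calls 30 and 8 (17 and 11). Between OMVSSDC and ZJDC, 55.8% of calls were then higher, against 43.8% with TMM. Of 3448 values of single genes, 3161 kept their call or lack of one, 147 lost and 136 gained a call, and 4 turned. Values without a call were not counted as turned, though the sign of some changed, as for Irf3 in OMVSSDC over PBSDC (-0.08 to 0.45). Tlr9 turned to -0.21 over PBSDC without OMVSSDC replicate 3 (range -0.21 to 0.12 over single libraries left out). With that library alone, Ccl7 turned to 0.33 and Sdc4 to -0.35 over PBSDC, and Tlr9 to 0.34 over ZJDC. The causes were not tested.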
